A study of Saccharomyces cerevisiae with 13 samples.

Results

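The data described here follow yeast cells through 1, 2 and 4 h in 2% isopropanol, the solvent course of a study of the lampricide TFM, against cells of the same culture conditions at time zero. Of the 13 expression arrays of the series, 7 belong to this course and were chosen by their treatment and time labels. Isopropanol has 5 arrays, 2 at 1 h, 1 at 2 h and 2 at 4 h, and time zero has 2. The other 6 arrays are of cells given 0.05 mM TFM for 1, 2 or 4 h, 2 at each time. All cells were the laboratory strain BY4741 in saturated cultures at 30 °C in YPGE, a rich medium whose carbon sources, glycerol and ethanol, must be respired. The time zero samples were taken just before treatment by the series design, although their own label also names isopropanol, and they were taken as untreated. The second RNA sample of isopropanol at 2 h was of poor quality per the labels and has no array here. The RNA samples are called independent without word on separate cultures, so each p measures the spread between RNA samples, which may be technical.

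Isopropanol is a small secondary alcohol that crosses membranes freely. Alcohols disturb membranes and protein folding in yeast, and a classical answer to unfolded protein is transcription of chaperone genes by the heat shock factor Hsf1. Copper and iron enter yeast through plasma membrane transporters after reduction by metalloreductases, and several of these genes are switched on by the copper-sensing factor Mac1 when copper is short.

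Each of the 5449 genes measured is given by its log2 RMA value, the deposited level of its probe set after normalization of all arrays to a common distribution, so changes are relative to the array as a whole. In bulk RNA, fewer cells expressing a gene and less RNA per cell cannot be told apart. Levels of different genes are not compared, since each probe set has its own brightness. The strain label was checked first. LEU2 lay between 5.42 and 5.88 on the 7 arrays, MET17 between 5.47 and 5.80 and URA3 between 4.77 and 5.04, all under the highest mean of the unspiked control probe sets, 5.94, as the deletions of this strain imply. HIS3 lay between 11.37 and 11.61, and since the his3 allele of this strain lacks only an internal stretch, its probe set checks nothing. The standard deviation of the difference between replicates over genes was 0.105 at time zero, 0.151 in isopropanol at 1 h and 0.189 at 4 h. In TFM it was 0.141 at 1 h, 0.239 at 2 h and 0.221 at 4 h. The level of 3′ probe sets minus that of 5′ probe sets of the same control genes, which reads RNA integrity and labelling, was 1.19 and 1.21 at time zero, 1.42 and 1.34 in isopropanol at 1 h, 1.14 at 2 h, and 1.15 and 1.13 at 4 h. Over the 5 isopropanol arrays it averaged 1.24, against 1.20 over the 2 time zero arrays (exact permutation test, two-sided, p = 0.857 over 21 splits).

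Taken over the whole course, the isopropanol arrays showed small differences from time zero, and no gene passed the test. No array is of cells kept for those times without isopropanol or TFM. Isopropanol and elapsed time therefore cannot be told apart, and a gene called higher or lower in isopropanol may differ through either. Comparing the mean of the 5 isopropanol arrays with the mean of the 2 time zero arrays in limma gave 0 of 5449 genes at a Benjamini-Hochberg adjusted p under 0.05 (0% of genes called). An unadjusted p under 0.05 was reached by 37 genes higher in isopropanol (0.679% of genes) and by 31 lower (0.569%), together 68, where p-values spread evenly would give 272. The smallest adjusted p was 0.275. The spread in this fit draws on the TFM arrays too, whose replicates at 2 h and 4 h differed more than any pair of this course. Without the TFM arrays 154 genes had an unadjusted p under 0.05 in the pooled comparison, and 0 passed the adjusted threshold. The fitted changes ran from -0.48 to 0.87 on the log2 scale. No gene was past a 2-fold change over the pooled course, 13 were higher by more than 0.5 and 0 lower by more than 0.5. The median standard error of a pooled change was 0.0798, and for 5420 genes (99.5%) the 95% confidence interval of the change lay inside a 2-fold change either way. Single times gave 0 genes past the threshold as well, with 367 genes at an unadjusted p under 0.05 at 1 h, 111 at 2 h and 67 at 4 h. A change past 2-fold was fitted for 5 genes at 1 h, 6 at 2 h and 0 at 4 h. An F test for a difference at any of the 3 times gave 0 genes, with 266 (4.88%) at an unadjusted p under 0.05.

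Of the 4 genes of smallest p in the pooled comparison, 3 act in copper or iron uptake (CTR1, FRE1 and FET4), and the other was ERO1. CTR1, the high-affinity copper transporter of the plasma membrane (YPR124W, chromosome XVI), had log2 values of 11.99 and 11.90 at time zero, 12.26 and 12.21 at 1 h, 12.84 at 2 h, and 12.37 and 12.61 at 4 h. All 5 isopropanol arrays lay above both time zero arrays, with the highest value at 2 h. CTR1 averaged 12.46 ± 0.26 in isopropanol (SD, n = 5) and 11.94 ± 0.063 at time zero (SD, n = 2), a change of 0.51 ± 0.080 (SE) that did not pass after adjustment (limma adjusted p = 0.275). By time the CTR1 change was 0.29 ± 0.095 at 1 h, 0.90 ± 0.12 at 2 h (adjusted p = 0.115) and 0.55 ± 0.095 at 4 h. FRE1, the main ferric and cupric reductase of the cell surface (YLR214W, chromosome XII), had 10.57 and 10.46 at time zero, 10.95 and 10.90 at 1 h, 10.93 at 2 h, and 10.84 and 10.95 at 4 h. The groups did not overlap and the isopropanol values stayed within a narrow band over the course. The pooled FRE1 change was 0.40 ± 0.062 (adjusted p = 0.275), with 0.41 at 1 h, 0.41 at 2 h and 0.38 at 4 h.

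FRE7, a metalloreductase gene known to respond to low copper, had 8.45 and 8.49 at time zero, 8.52 and 8.70 at 1 h, 9.66 at 2 h, and 8.85 and 9.50 at 4 h. The 1 h arrays lay close to time zero. The 4 h replicates lay far apart, and the pooled FRE7 change of 0.57 had a wide error (± 0.16, adjusted p = 1.0). FET4, a low-affinity transporter of iron that also carries copper and zinc, had 9.87 and 9.96 at time zero, 10.01 and 9.93 at 1 h, 10.52 at 2 h, and 10.27 and 10.32 at 4 h. FET4 at 1 h overlapped time zero, and its 2 h and 4 h arrays lay above it, with changes of 0.06 at 1 h, 0.61 ± 0.086 at 2 h (adjusted p = 0.115) and 0.38 at 4 h. CTR3, a second high-affinity copper transporter, had a pooled change of 0.17 ± 0.058 with no overlap between groups. In the list of 9 genes of copper uptake and metalloreductases, 0 passed the adjusted threshold, 5 were higher at an unadjusted p under 0.05, and 4 (44.4%) had all 5 isopropanol arrays above both time zero arrays, beside 1.91% of all genes. The list median was 0.17, beside -0.0073 for all genes. The list was made with earlier results of these data known. It holds CTR1, FRE1, FRE7 and FET4, so its values in part restate theirs. The other 4 members, IRC7, MAC1, CCC2 and ATX1, had pooled changes between -0.071 and 0.039. The list's pooled median ran from 0.039 with the dimmest 25% of genes left out, where only the brighter members remain, to 0.21.

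**Figure D1:**
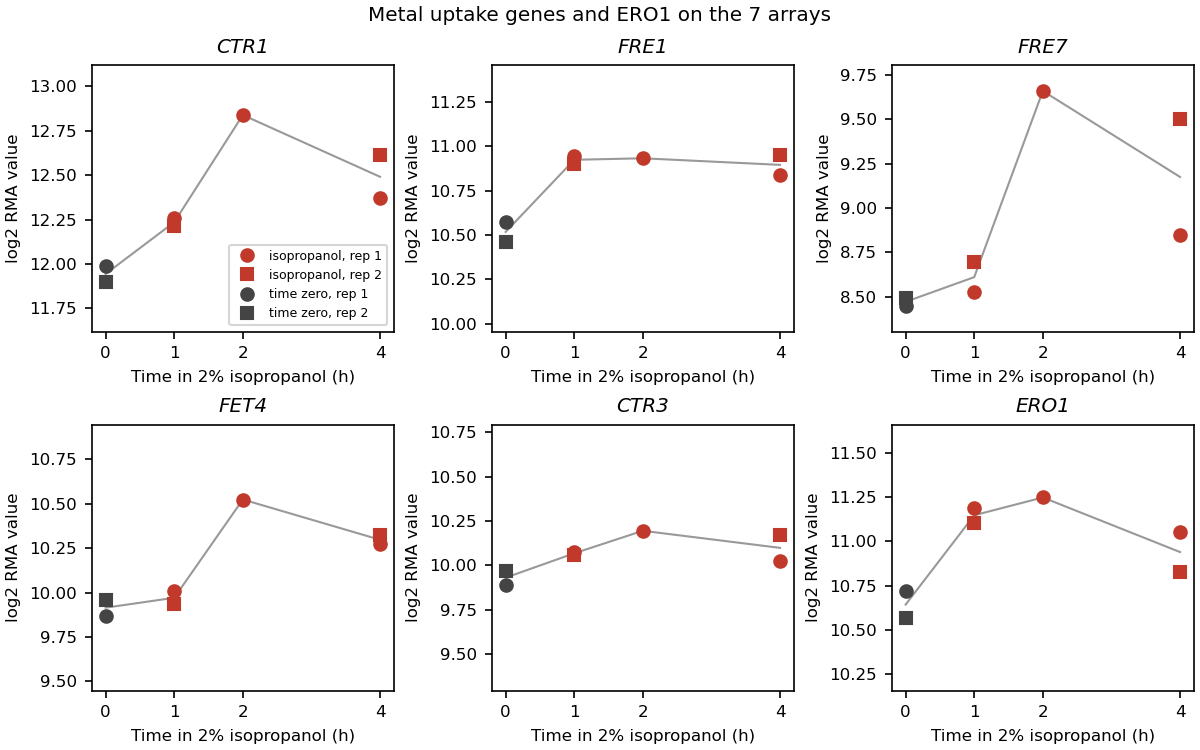
Log2 RMA values of CTR1, FRE1, FRE7, FET4, CTR3 and ERO1 (y axis) against time in 2% isopropanol in hours (x axis, time zero at 0 h); points are single arrays, red for isopropanol and dark for time zero, and the line joins the means. CTR1, FRE7 and FET4 were highest on the lone 2 h array, while FRE1 was at 10.84 to 10.95 on all 5 isopropanol arrays, above 10.46 and 10.57 at time zero.

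Other metal lists showed little. The iron regulon (23 genes measured), which includes the high-affinity iron uptake system, had a pooled median of -0.0053 with 0 genes at an unadjusted p under 0.05 in either direction. The zinc regulon (9 genes) had a median of -0.026. FET4 belongs to the zinc list too, as its 1 member higher at an unadjusted p under 0.05 (0.30). The 4 measured genes of copper detoxification, metallothioneins among them, had a median of -0.012.

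ERO1, the thiol oxidase that drives disulfide formation in the endoplasmic reticulum, had the smallest p after CTR1 and FRE1. Its log2 values were 10.72 and 10.57 at time zero, 11.19 and 11.11 at 1 h, 11.25 at 2 h, and 11.05 and 10.83 at 4 h. Every isopropanol array lay above both time zero arrays, with the 4 h arrays lowest among the 5. The pooled ERO1 change was 0.44 ± 0.084 (adjusted p = 0.765), and the change at 1 h was 0.50 ± 0.10. Other genes of folding in the endoplasmic reticulum did not share that rank. KAR2, its Hsp70 chaperone, had a pooled change of 0.14 ± 0.073, and the 20 measured genes of the list had a median of -0.0044, with ERO1 as the 1 member at an unadjusted p under 0.05. HAC1, which encodes the transcription factor of the unfolded protein response, had -0.21 ± 0.16.

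Chaperone genes of the cytosol were higher on 4 of the 5 isopropanol arrays, and isopropanol 4 h replicate 2 lay near time zero. BTN2, a sorting factor for misfolded proteins, had 13.09 and 12.63 at time zero, 14.03 and 13.88 at 1 h, 14.03 at 2 h, and 13.87 and 12.78 at 4 h. SSA2, an Hsp70, had 12.97 and 12.67 at time zero, 13.68 and 13.75 at 1 h, 13.68 at 2 h, and 13.63 and 12.89 at 4 h. SSA4, the stress-inducible Hsp70, had 12.24 and 12.15 at time zero, 13.06 and 13.16 at 1 h, 13.15 at 2 h, and 13.21 and 12.12 at 4 h. In each of the 3 genes the first 4 isopropanol arrays lay close together above time zero and the last one lay among or next to the time zero values. APJ1, a J-protein cochaperone, had 11.28 and 11.07 at time zero, 12.04 and 12.04 at 1 h, 12.37 at 2 h, and 11.80 and 10.99 at 4 h. ZPR1, a chaperone of translation elongation factor 1A, had 11.31 and 11.14 at time zero, 11.95 and 12.09 at 1 h, 12.46 at 2 h, and 12.26 and 11.32 at 4 h. APJ1 and ZPR1 thus showed the same low array. The pooled changes were 0.86 ± 0.26 for BTN2, 0.71 ± 0.21 for SSA2, 0.74 ± 0.27 for SSA4, 0.68 ± 0.20 for APJ1 and 0.79 ± 0.24 for ZPR1, each with an adjusted p of 1.0. Without isopropanol 4 h replicate 2 they were 1.09 for BTN2, 0.86 for SSA2, 0.95 for SSA4, 0.89 for APJ1 and 0.97 for ZPR1. That rise follows from leaving out the lowest isopropanol array of each gene.

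Across the heat shock list, chaperones and regulators known as Hsf1 targets, all 26 measured genes had a pooled change above 0, where 2440 of all 5449 genes did, and 0 of the 26 passed the adjusted threshold. An unadjusted p under 0.05 was reached by 12 of the 26 genes, all higher, beside 0.679% of all genes. The list median was 0.17 pooled, 0.24 at 1 h, 0.23 at 2 h and 0.11 at 4 h. By array, the median difference from the time zero mean was 0.24 and 0.21 at 1 h, 0.23 at 2 h, and 0.19 and -0.035 at 4 h. All 5 isopropanol arrays lay above both time zero arrays for 5 of the 26 genes (19.2%), beside 1.91% of all genes. The 4 arrays without isopropanol 4 h replicate 2 did so for 22 of 26 (84.6%), beside 5.38% of all genes on those 4 arrays. That array was set aside after these same genes were seen to be low on it. The choice by itself raises the 22, so the 5.38% is not an even comparison. The changes within the list ran from 0.027 to 0.86: HSP82, the inducible Hsp90, had 0.39 ± 0.14, the Hsp70 exchange factor gene FES1 0.41 ± 0.14, the mitochondrial J-protein gene MDJ1 0.25 ± 0.077, and the Hsp90 cochaperone gene STI1 0.20 ± 0.065. The time zero arrays differed too, with list medians of 0.052 for replicate 1 and -0.052 for replicate 2 about their mean, and without time zero replicate 2 the pooled list median was 0.13. The 3′ minus 5′ difference of isopropanol 4 h replicate 2 was 1.13 and that of replicate 1 was 1.15. Their ribosomal RNA probe sets averaged 8.78 for replicate 2 and 9.88 for replicate 1, their hybridization controls 11.36 and 11.58 in that order, and the part of either in the gap was not tested.

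**Figure D2:**
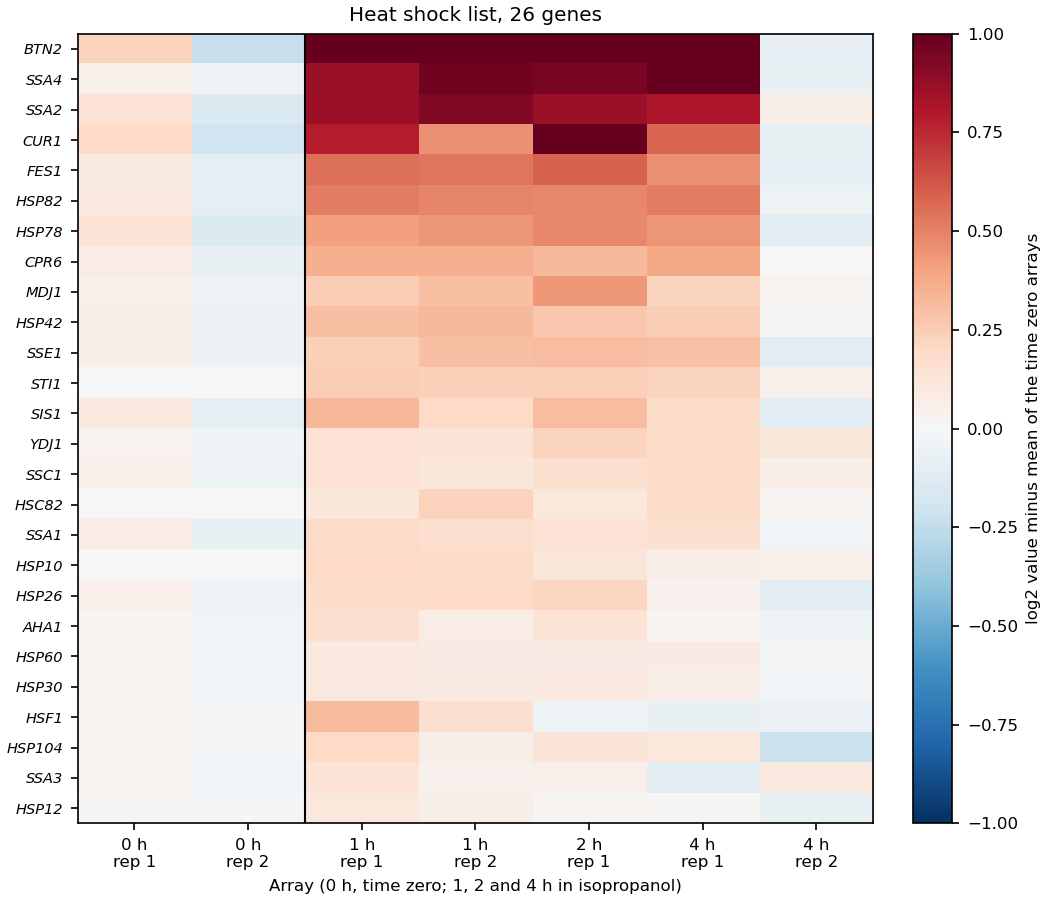
Heat map of the 26 genes of the heat shock list (rows) on the 7 arrays (columns, time zero left of the line, then 1, 2 and 4 h in isopropanol); colour gives the log2 value minus the mean of the time zero arrays, red higher and blue lower. BTN2, SSA4 and SSA2 lead on 4 isopropanol arrays, while isopropanol 4 h replicate 2 has a list median of -0.035.

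Lower in isopropanol, the 10 genes of smallest p had changes between -0.41 and -0.18, each with an adjusted p of 1.0. MUB1, a partner of the ubiquitin ligase that degrades the proteasome gene activator Rpn4, had 11.00 and 11.05 at time zero, 10.63 and 10.73 at 1 h, 10.89 at 2 h, and 10.50 and 10.65 at 4 h, a pooled change of -0.35 ± 0.12. NPR2, a subunit of a regulator of the TORC1 growth kinase, had 11.23 and 11.25 at time zero, 11.02 and 10.94 at 1 h, 11.10 at 2 h, and 10.99 and 11.10 at 4 h, a change of -0.21 ± 0.064. In both genes all isopropanol arrays lay below time zero. The flippase kinase gene FPK1 (-0.22), RFU1, which inhibits a deubiquitinase (-0.24), CIS1 (-0.20) and the cohesin acetyltransferase gene ECO1 (-0.18) had changes smaller than that of MUB1. DBP1, an RNA helicase (-0.41), the water channel gene AQY1 (-0.34), the forkhead factor gene HCM1 (-0.35) and the meiotic RNA-binding protein gene RIM4 (-0.34) were lowest at 1 h or on isopropanol 4 h replicate 1 and near time zero at 2 h. Over all genes, 115 (2.11%) had all 5 isopropanol arrays below both time zero arrays and 104 (1.91%) above. Without isopropanol 4 h replicate 2 the shares were 10.9% below and 5.38% above.

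At 1 h the outcome depended on whether the replicate numbers were used to pair arrays. In the fit to all 13 arrays 0 genes passed (0% called), 154 being higher (2.83%) and 213 lower (3.91%) at an unadjusted p under 0.05. The 7 arrays without TFM, still unpaired, gave 1 gene, PAU4, with 296 higher and 390 lower by that measure. With the replicate number as a block on the same 7 arrays, 44 genes were higher (0.807%) and 39 lower (0.716%) at an adjusted p under 0.05. That fit takes a mean for each group and a block term from 7 arrays, so few residual degrees of freedom remain. Fewer still remain with an array left out. The pairing rests on the data alone, since replicate deviations from the group means correlated at 0.426, 0.599 and 0.266 in the 3 pairs of groups. Leaving out either time zero array under the block left 0 genes, leaving out a 1 h array left 12 or 6, and leaving out either 4 h array gave 1015.

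The genes higher at 1 h with the block were mostly dim. Their median level at time zero was 8.35, against 10.97 for the genes lower at 1 h and 11.43 for all genes, and 38 of the 44 belonged to the dimmest 25% of genes, against 12 of the 39. The largest each way were picked after their values were seen. YBL008W-A, a short reading frame, had 6.05 and 5.97 at time zero, 7.10 and 7.46 at 1 h, 6.02 at 2 h, and 6.04 and 6.02 at 4 h. RRT15, a small gene named after a screen for regulators of ribosomal DNA transcription, had 8.71 and 8.63 at time zero, 9.88 and 9.63 at 1 h, 8.48 at 2 h, and 8.34 and 8.76 at 4 h. PAU4, of the seripauperin family of cell wall proteins known from anaerobic growth, had 8.77 and 8.67 at time zero, 9.68 and 9.68 at 1 h, 8.85 at 2 h, and 8.95 and 8.87 at 4 h. These 3 genes were high at 1 h and back near time zero by 2 h. Away from 1 h, YBL008W-A lay close to the highest mean of the unspiked control probe sets, 5.94. None of the 3 passed at 1 h in the fit to all 13 arrays. The changes at 1 h with the block were 1.26 ± 0.11 for YBL008W-A (adjusted p = 0.0272), 1.08 ± 0.15 for RRT15 (0.0412), 0.96 ± 0.058 for PAU4 (0.0096), 1.00 ± 0.13 for PAU21 (0.0412) and 1.14 ± 0.070 for YPR027C (0.0096). Of the 13 PAU genes measured, 4 were called higher with the block, beside 0.807% of all genes, and 0 lower. The family was looked at after these values were seen, so its count in part restates PAU4 and PAU21. The family median at 1 h was 0.24, with 8 of the 13 above 0 and 1 lower at an unadjusted p under 0.05, PAU23 at -0.18. The members are nearly identical, and their probe sets may share signal.

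Lower at 1 h with the block was GPD2, the glycerol-3-phosphate dehydrogenase gene of redox balance, with 11.48 and 11.92 at time zero, 10.83 and 10.94 at 1 h, 12.68 at 2 h, and 11.42 and 11.85 at 4 h. GPD2 was thus below time zero at 1 h, above it at 2 h and at its level at 4 h, with changes of -0.82 ± 0.095 at 1 h (limma adjusted p = 0.0376 with the block) and 0.98 ± 0.34 at 2 h without it (limma adjusted p = 1.0). MET13, a methylenetetrahydrofolate reductase gene of methionine synthesis (-0.70 ± 0.078), OAR1, of mitochondrial fatty acid synthesis (-0.68 ± 0.095), AQY1 (-0.66 ± 0.070) and DBP1 (-0.65 ± 0.072) followed at 1 h. With the 3′ minus 5′ difference as a covariate and no block, the direction turned for MET13 (0.26) and DBP1 (0.12). ERO1 at 0.50 ± 0.061 (adjusted p = 0.0404) and RRP36, an 18S rRNA processing factor, at 0.44 ± 0.059 (adjusted p = 0.0412) were also called higher with the block. The F test for any time with the block called 7 genes (0.128%), ADA2, GPD2, PAU18, PAU4, YOR072W-B, YOR365C and YPR027C.

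The 1 h arrays also had the highest 3′ minus 5′ differences of the course, 1.42 and 1.34, against 1.19 and 1.21 at time zero. With that difference added to the block as a covariate, 0 genes were called at 1 h (115 at an unadjusted p under 0.05). The median 1 h change of the 44 genes was then 0.58, against 0.57 without the covariate. That of the 39 genes was -0.32, against -0.47. In that fit only small differences between replicates separate the covariate from the groups, and few residual degrees of freedom remain. The loss of calls therefore does not decide the covariate's part. Ribosomal RNA probe sets averaged 9.86 and 10.2 on the 1 h arrays and 9.16 and 8.84 at time zero, and their part in the 1 h differences was not tested.

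**Figure D3:**
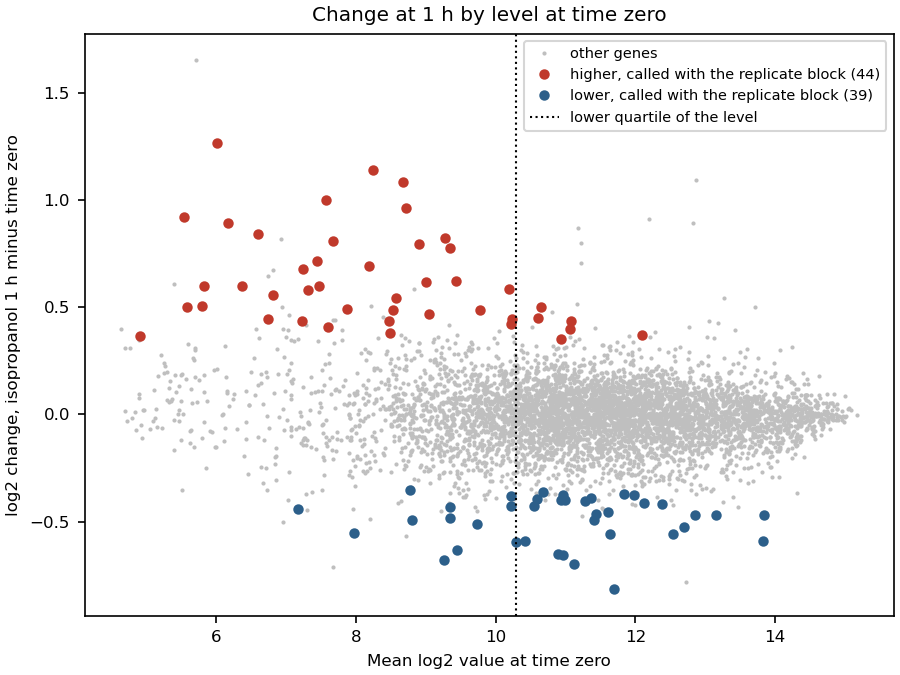
Log2 change at 1 h in isopropanol minus time zero (y axis) against the mean log2 value at time zero (x axis) for 5449 genes; red points are the 44 genes higher and blue points the 39 lower with the replicate block, and the dotted line marks the lower quartile of the level. Of the red points 38 lie in the dimmest 25%, and of the blue points 12.

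At 2 h a single array stood against time zero, and its spread was taken from the other groups. Ribosomal RNA probe sets averaged 7.59 on that array, the lowest of the 13 arrays, and their part was not tested. The 3 genes of smallest p higher were CTR1, FET4 and FRE7, the last at 1.19 ± 0.24. Lower at 2 h were PUF6, a repressor of mRNA translation with a part in 60S assembly (-0.37 ± 0.098), ACL4, the chaperone of ribosomal protein Rpl4 (-0.33 ± 0.084), and PTH4 (-0.32 ± 0.094), each with an adjusted p of 1.0. An unadjusted p under 0.05 was reached by 42 genes higher (0.771%) and 69 lower (1.27%). At 4 h, where 38 genes were higher (0.697%) and 29 lower (0.532%) by that measure, CTR1, FET4 and FRE1 again had the smallest p higher, and CIS1 (-0.33 ± 0.081), the mitochondrial helicase gene HMI1 (-0.27 ± 0.076) and MUB1 (-0.45 ± 0.14) the smallest lower, these 3 each with an adjusted p of 0.999.

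The trend over 1, 2 and 4 h, fitted as a log2 slope per hour on the 5 isopropanol arrays, called 0 genes (0%), with 324 upward (5.95%) and 218 downward (4%) at an unadjusted p under 0.05 and a smallest adjusted p of 0.420. Of the 5 genes of smallest p upward, 4 act in ribosome assembly, and the other was MF(ALPHA)1. BRX1, a 60S assembly factor, had 12.21 and 12.16 at time zero, 11.90 and 11.94 at 1 h, 12.05 at 2 h, and 12.22 and 12.36 at 4 h. RPF2, which brings 5S RNA into the large subunit, had 11.24 and 11.23 at time zero, 11.00 and 11.05 at 1 h, 10.93 at 2 h, and 11.34 and 11.49 at 4 h. Both lay below time zero at 1 and 2 h and at or above it at 4 h. The slopes per hour were 0.12 ± 0.025 for BRX1, 0.14 ± 0.030 for RPF2, 0.12 for NOC3 and 0.12 for RIX1, which both act in 60S assembly, and 0.17 for both HAS1, an RNA helicase, and IMP4, of the small subunit processome (adjusted p = 0.42 for each). In the list of 62 small subunit processome and rRNA processing genes, 26 had an upward slope at an unadjusted p under 0.05, beside 5.95% of all genes, 0 a downward one, and 57 a slope above 0, with a median of 0.061 per hour beside 0.00063 for all genes. The list's median difference from time zero was -0.043 and -0.069 on the 1 h arrays, -0.088 at 2 h, and 0.079 and 0.17 at 4 h. Over the alternatives its median slope stayed between 0.045 and 0.074.

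Amino acid biosynthesis genes (12 of 46 upward at an unadjusted p under 0.05, median slope 0.041), ergosterol biosynthesis genes (9 of 26, median 0.036), RNA polymerase I and III genes (5 of 28, median 0.049) and cytosolic ribosomal protein genes (15 of 127, median 0.028), set against 5.95% of all genes upward, had no downward member at that p. Their per-array medians were below 0 on both 1 h arrays, and above 0 on isopropanol 4 h replicate 2, the ribosomal protein genes by only 0.0019 there. Without isopropanol 4 h replicate 2 the upward count over all genes was 116 and the downward count 281. The 3′ minus 5′ difference was also highest at 1 h, and with it as a covariate 39 genes were upward and 99 downward. The amino acid median slope was then 0.00052 and the ergosterol one -0.0031. Only small differences between replicates separate the covariate from the time points in that fit, so it does not decide the covariate's part.

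Of the 5 genes of smallest p with a downward slope, POT1 and PXA2 act in fatty acid breakdown and SPG1 in stationary phase, and the others were RRT15 and YNL277W-A, with none past the adjusted threshold. POT1, the peroxisomal thiolase of beta-oxidation, had 12.70 and 12.82 at time zero, 13.02 and 13.08 at 1 h, 12.68 at 2 h, and 12.47 and 12.53 at 4 h. SPG1, required for survival at high temperature in stationary phase, had 13.04 and 13.02 at time zero, 13.35 and 13.43 at 1 h, 12.99 at 2 h, and 12.89 and 12.89 at 4 h. PXA2, a subunit of the peroxisomal fatty acid importer, had 11.61 and 11.56 at time zero, 11.90 and 11.83 at 1 h, 11.54 at 2 h, and 11.35 and 11.41 at 4 h. All 3 were above time zero at 1 h and below both of its arrays at 4 h. Their slopes were -0.17 ± 0.029 for POT1, -0.16 ± 0.028 for SPG1 and -0.16 ± 0.032 for PXA2 per hour, each with an adjusted p of 0.42. Of the 19 beta-oxidation and peroxisome genes, 6 had a downward slope at an unadjusted p under 0.05, beside 4% of all genes, and 0 an upward one, with a median of -0.057. Quiescence and stationary phase genes (4 of 19 downward, median -0.032) and general stress genes (5 of 30, median -0.018), again beside 4% of all genes downward, had 0 upward members at that p.

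**Figure D4:**
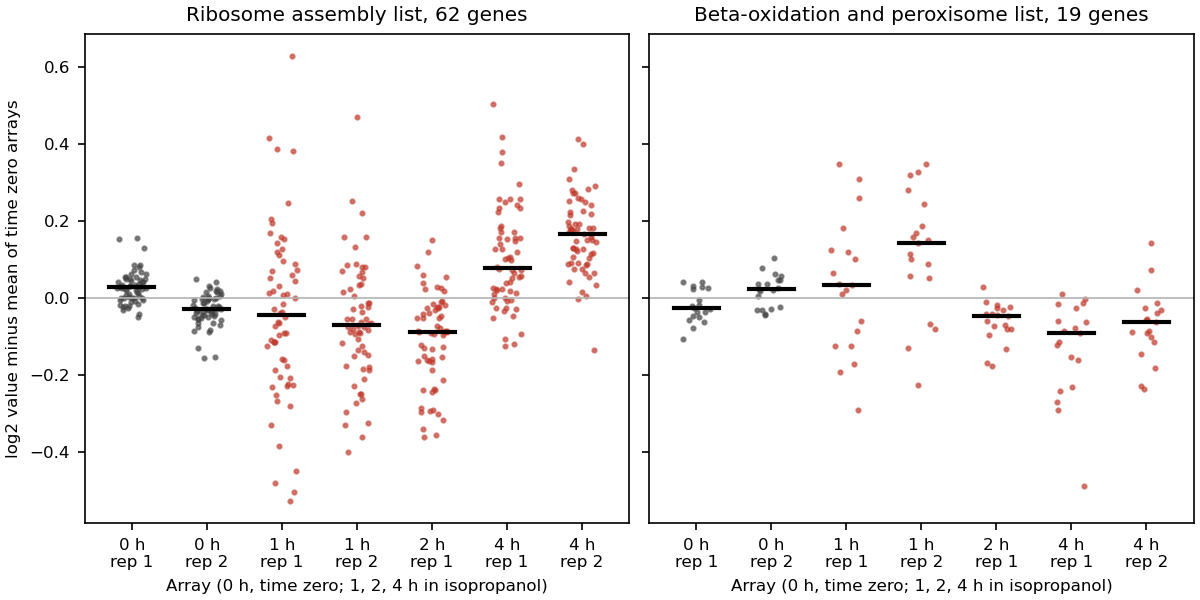
Log2 value minus the time zero mean (y axis) on each of the 7 arrays (x axis) for the 62 ribosome assembly genes (left) and the 19 beta-oxidation and peroxisome genes (right); points are genes, bars are list medians, dark for time zero and red for isopropanol. The ribosome assembly median was -0.088 at 2 h and 0.079 and 0.17 at 4 h, and the beta-oxidation median 0.034 and 0.14 at 1 h and -0.089 and -0.061 at 4 h.

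Enzymes of alcohol and carbon use stayed close to time zero. ADH2, the alcohol dehydrogenase of ethanol use, averaged 14.74 ± 0.014 in isopropanol (SD, n = 5) and 14.76 ± 0.0034 at time zero (SD, n = 2), a change of -0.017 with a 95% confidence interval from -0.13 to 0.094. ADH1 averaged 14.96 ± 0.018 in isopropanol and 14.96 ± 0.0043 at time zero, and the acetaldehyde dehydrogenase gene ALD4 had a change of -0.0028. These probe sets were among the brightest on the array, where a change may be compressed. The 24 measured alcohol and aldehyde dehydrogenase genes had a median of 0.0061, with 0 at an unadjusted p under 0.05. The respiratory chain (27 genes, -0.0051), ATP synthase (16 genes, 0.0052), tricarboxylic acid cycle (14 genes, -0.0069), glyoxylate cycle and gluconeogenesis (19 genes, -0.019), glycolysis (19 genes, 0.013) and the drug resistance regulon of Pdr1 and Pdr3 (19 genes, -0.00043) had pooled medians within 0.02 of 0. Of the 40 lists, 38 had a pooled median within 0.1 of 0.

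The mitochondrial ribosome was another list, beside copper uptake and heat shock, whose members often lay above time zero on every isopropanol array. Of its 69 genes, 12 (17.4%) did so, beside 1.91% of all genes, and 56 had a pooled change above 0. The changes were small, with a median of 0.049 and a range from -0.086 to 0.19, and 1 gene, MRPL22 at 0.19 ± 0.078, had an unadjusted p under 0.05. Without time zero replicate 2 the list median was 0.028. MRP13 (0.16 ± 0.081) and MRP17 (0.14 ± 0.068) came next. The per-array median was between 0.023 and 0.072 on all 5 isopropanol arrays, set against the mean of both time zero arrays.

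**Figure D5:**
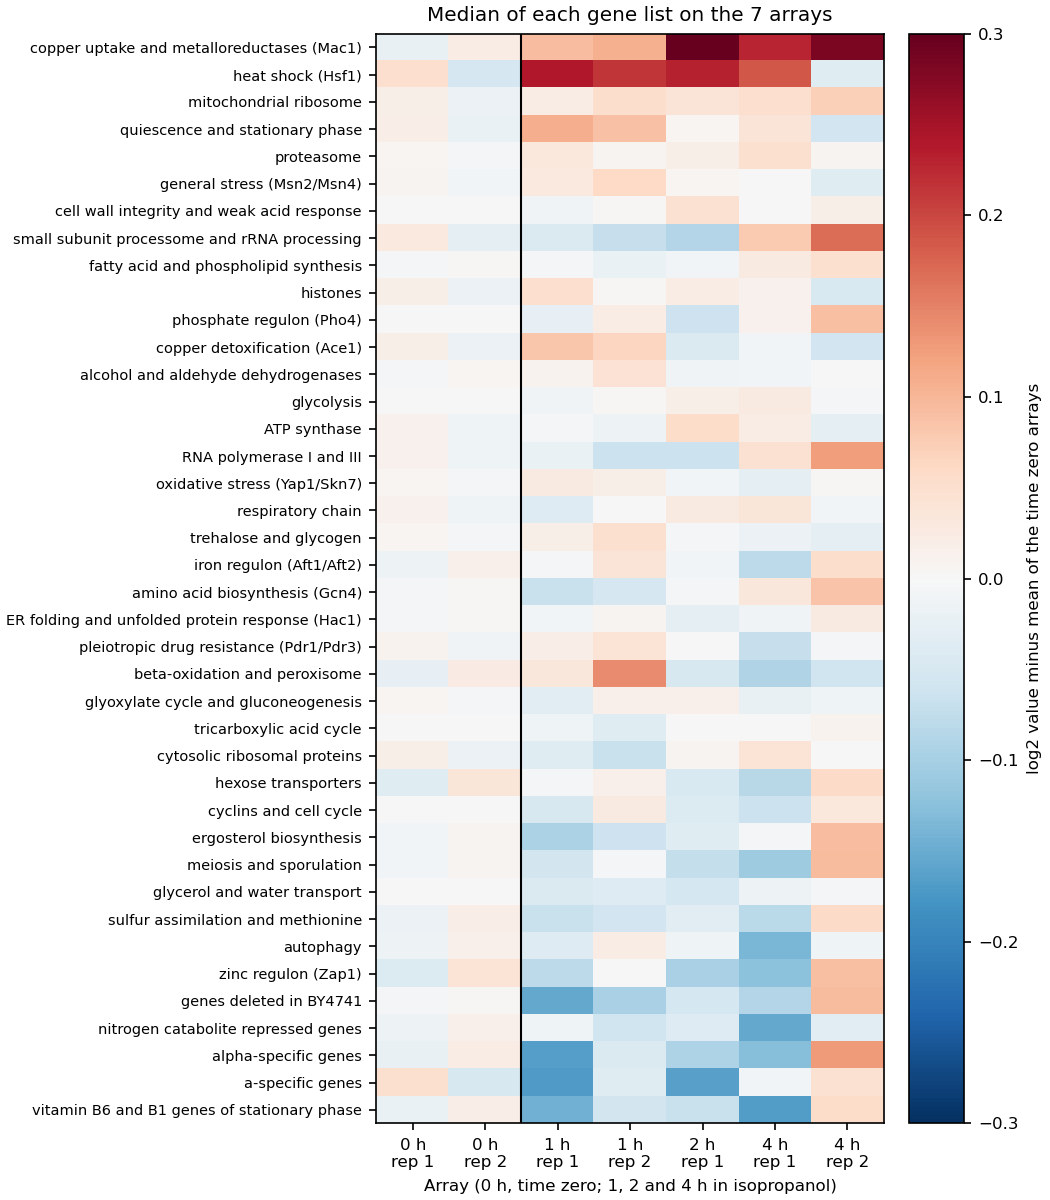
Median log2 difference from the time zero mean for each of the 40 gene lists (rows) on the 7 arrays (columns, time zero left of the line); red is higher and blue lower than time zero. Copper uptake (pooled median 0.17) and heat shock (0.17) stand at the top, the latter with -0.035 on isopropanol 4 h replicate 2.

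The TFM arrays of the same series were set against the same 2 time zero arrays, so the values share them, and how much isopropanol the TFM cultures received is not stated. The difference between the courses was not tested here. CTR1 differed from time zero by 0.29, 0.90 and 0.55 at 1, 2 and 4 h in isopropanol, and by -0.05, 0.07 and -0.46 in TFM. FRE7 had 0.14, 1.19 and 0.70 in isopropanol, and 0.01, 0.23 and 0.19 in TFM. BTN2 had 1.09, 1.17 and 0.47 in isopropanol, and 1.10, 1.38 and 0.89 in TFM, while ERO1 had 0.50, 0.60 and 0.30 in isopropanol, and 0.60, 1.35 and 1.32 in TFM. POT1 had 0.29, -0.08 and -0.26 in isopropanol, and 0.65, 0.93 and 1.41 in TFM.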

How the data were processed

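The deposited values are log2 expression values per probe set made with RMA (version not stated), per the submitters' processing notes. RNeasy RNA was labelled as biotin cRNA with an Enzo kit, per the labels' protocols. Of 5900 probe sets, 184 were controls and 218 had no single gene. The rest gave 5449 genes, 47 of them represented by the probe set of highest mean over the 13 arrays. Names came from the array annotation, and 12 symbols were updated through the RefSeq gene table.

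All 13 arrays were fitted in limma 3.58.1 under R 4.3.3, each of the 7 groups having its own mean, with default eBayes (6 residual and 3.52 prior degrees of freedom) and two-sided Benjamini-Hochberg p-values over 5449 genes. The script was tested on simulated data. Figures used matplotlib 3.10.9. Precision is set by how few arrays there are, and the median standard error was 0.0954 at 1 and 4 h and 0.117 at 2 h.

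The arrays, members and gene lists were chosen with earlier results of these data known. The text names the genes of smallest p, 10 each way for the pooled comparison, 3 each way per time and 5 each way for the slope, and up to 3 each way per list. SSA4, FES1, STI1, HSP82, ADH1 and ALD4 are printed outside these rules. The largest genes at 1 h with the block, GPD2 at 2 h and the PAU family were chosen after seeing values. So were the counts of genes without overlap when isopropanol 4 h replicate 2 was left out. Same-numbered replicates deviated together in all 3 pairs of groups (r of 0.266 to 0.599), which is where the pairing comes from. Alternatives changed the arrays fitted, the block, the variance prior, array weights, normalization, the filter on dim genes, probe set choice, covariates and the arrays left out.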

Additional observations from a re-analysis of the deposited data

Results flagged for a closer look

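Among the 5 isopropanol arrays, isopropanol 4 h replicate 2 lay apart from the other 4 for 5 of the 46 named genes that were looked at. The gap to the nearest array, divided by the whole range, was 0.873 for BTN2, 0.860 for SSA2, 0.860 for SSA4, 0.887 for STI1 and 0.805 for FES1, above Dixon's critical value of 0.71 for 5 samples. In each case that array was the lowest of the 5. Chance flags about 1 in 20 groups, and the 5 genes are chaperones or cochaperones that move together on these arrays, so they are not independent. SSA4, STI1 and FES1 were also picked outside the rules for naming genes. The share flagged therefore cannot be read against that rate. The other 4 h replicate did not lie apart: BTN2 had 13.87 there against 12.78 on replicate 2, and SSA4 13.21 against 12.12.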

How the results depend on the processing

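The pooled, slope and 4 h counts stayed at 0 genes in every fit without a block and with 1 choice changed, except 2 genes pooled with array weights, CTR1 (adjusted p = 0.036) and FRE1 (0.040). At 2 h CTR1 passed with a trended, robust variance (1 gene), median centring (1) and the dimmest 25% left out (1), and with FET4 after cyclic loess (2) or array weights (2). At 1 h PAU4 passed on the 7 arrays without TFM (1), and RRT15 and RRP36 with array weights (2), where the F test called 4. The replicate block gave 83 genes at 1 h and 7 for the F test, and changed no other call. The block with the hybridization controls as a covariate gave 50 genes pooled, 695 for the slope, 599 for the F test, 447 at 1 h, 38 at 2 h and 39 at 4 h. The block with the 3′ minus 5′ covariate gave 0 throughout. Leaving out 1 array gave 0 genes each time. Under the block few residual degrees of freedom remain, fewer with 1 array left out, and the result turned on the array left out. Without either time zero array 0 genes were called. Without isopropanol 1 h replicate 1 or 2 the counts were 12 and 6 at 1 h, 1 and 1 at 2 h, 4 and 0 for the slope, and 5 and 1 for the F test. Without the 2 h array they were 83 at 1 h, 44 for the slope, 5 for the F test and 1 pooled. Without isopropanol 4 h replicate 1 or 2 they were 1015 both times at 1 h, 94 both times at 2 h, 28 and 198 at 4 h, 930 and 859 for the slope, 1434 and 1433 for the F test, and 166 and 292 pooled. At 1 h and 2 h the counts without either 4 h array are equal because the lone 4 h array is then fitted exactly. It adds nothing to the spread. What set the size of the counts was not tested.

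Under the 3′ minus 5′ covariate alone the 1 h changes of MET13 (0.26) and DBP1 (0.12) and the slope of MF(ALPHA)1 (-0.029) reversed. Of the other values for named genes, 1373 kept direction and side of the threshold and 201 newly passed. Of the list medians, 2084 moved by less than the replicate spread and 276 by more. At an unadjusted p under 0.05, pooled counts with 1 array left out ran from 10 without time zero replicate 2 to 265 without isopropanol 4 h replicate 2. They were 301 with array weights, 321 with the block and 609 with the block and the hybridization covariate, above the 272 of evenly spread p-values. Genes with all isopropanol arrays above time zero ran from 136 to 605 with 1 array left out. Only 72 genes had a mean level at or under the unspiked controls.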

Other observations

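Some lists not described above leaned lower in isopropanol without a gene passing the test. The 25 measured genes repressed by good nitrogen sources had a pooled median of -0.073, with 4 above 0, and DAL4, an allantoin permease gene (-0.23 ± 0.094), and MEP1, an ammonium permease gene (-0.17 ± 0.076), at an unadjusted p under 0.05. All 12 measured genes of vitamin B6 and B1 supply had a change below 0, with a median of -0.069. The 4 genes deleted in BY4741, of which LEU2, MET17 and URA3 were at background, had a pooled median of -0.061 with 0 above 0, and of all 5449 genes 2440 were above 0. A lean of about this size was thus also seen in a list mostly at background, and what sets it was not tested. The 7 a-specific mating genes had a median of -0.088 with 0 above 0, and their medians were lowest on isopropanol 1 h replicate 1 (-0.17) and the 2 h array (-0.16).

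MF(ALPHA)1, an alpha-factor gene that a cells keep low, had a slope of 0.25 ± 0.054 per hour over the course (limma adjusted p = 0.42), which turned to -0.029 with the 3′ minus 5′ covariate. Among the 218 probe sets with no single gene, 0 passed the adjusted threshold and 3 had an unadjusted p under 0.05 in the pooled comparison.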
